A study of Danio rerio with 12 samples.

Results

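Keratins and claudins are described here in pieces cut from zebrafish embryos, where they give a reading of the skin and other epithelia in each piece. A gene belongs here when the only gene symbol of its probe set begins with krt and a digit, with krtt or with cldn, and each gene is represented by its probe set with the highest mean signal over the 12 arrays. This gave 67 genes, 21 keratins and 46 claudins, of 20667 named genes. They come from 90 of the 75212 probe sets on the array, 18 of the genes have more than 1 probe set, and 7 further probe sets that list several symbols were left out. The symbol rule also takes *cldnd1a*, a gene named for a claudin domain, and leaves out *cyt1* and *cyt1l*, a pair of type I cytokeratin genes of the early skin that carry no krt symbol.

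The pieces came from Tg(hsp70:HA-*dmrt2a*) embryos, which carry *dmrt2a* with an HA tag under a heat-shock promoter in a single-copy line, and from wildtype control embryos. All of them, controls included, were heat-shocked at 39 °C for 30 min at bud-stage and grown at 28 °C. Cutting began 2 h later, when the embryos had 3 to 4 somites. Region 1 is the trunk piece that contains the somites, and Region 2 is the tail piece that contains the tailbud and the Left-Right Organiser (LRO). Each region and genotype has 3 arrays, each from a pool of 100 pieces, and the methods call them biological replicates. The heat-shock promoter is not restricted to a tissue, and the skin of the transgenic pieces was not read apart from the rest.

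Keratins are the intermediate filament proteins of epithelial cells, and a filament needs a type I and a type II keratin together. Claudins are membrane proteins that close or selectively open the tight junctions between neighbouring epithelial cells. At these stages the zebrafish embryo is covered by the enveloping layer (EVL), which becomes the periderm, over a layer of basal epidermis, and both families are known from the skin as well as from lumen-lining, vascular and neural cells.

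The values are log2 signals as deposited, and their level depends on the probes, so they are not compared between genes. Of the keratins, 10 had a mean log2 signal above 5 over the 12 arrays, and 8 of these lay above 8. Of the claudins, 11 lay above 5 and 5 of these above 8. The median standard deviation within a group was 0.036 to 0.059 for the 21 members above 5 and 0.118 to 0.145 for the 46 others, and signals as low as those of most claudins may lie near background, which was not measured here. The transgene was read through *dmrt2a* itself. On the control arrays it gave 8.45, 8.36 and 8.35 in Region 1 and 7.36, 7.41 and 7.33 in Region 2, and on the transgenic arrays 8.74, 8.75 and 8.74, and 8.75, 8.70 and 8.84. It rose by 1.40 in Region 2 (limma, adjusted p = 0.00352), and its difference of 0.35 in Region 1 had an adjusted p of 0.0991. The regions were told apart by *msgn1*, a gene of presomitic mesoderm, which was 4.68 higher in Region 2 control pieces. The muscle gene *myog* differed by -1.43.

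In the control pieces the signals of both families were compared between Region 1 and Region 2. Of the 21 keratins, 8 were higher and 3 lower in Region 2 than in Region 1 at an adjusted p under 0.05 over all probe sets, where 11.7% of the named genes were higher and 26.0% lower (8.68% and 19.0% of all probe sets). The median difference was 0.16 for keratins and -0.06 for all probe sets. Of the 46 claudins, 7 were higher and 11 lower, with a median of -0.08. The arrays of the regions did not overlap for 14 keratins and 27 claudins, and for 54.9% of the named genes. Fewer epithelial cells in a pool and less RNA per cell cannot be told apart in such pieces.

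The member keratins of the surface layer were higher in Region 2 by the probe set used for each, but for *krt4* and *krt17* this depends on the probe set. The cytokeratin genes *cyt1* and *cyt1l*, which are not members, differed by 0.14 and 0.10. Neither passed the test (limma, adjusted p = 0.0622 and 0.339). The type II keratin *krt4*, whose promoter is used to label the surface layer, gave 10.84, 10.87 and 10.87 on the Region 1 control arrays and 11.19, 11.17 and 11.17 on those of Region 2. The groups do not overlap, and the difference was 0.32 ± 0.055 (SE, n = 3 arrays each; 1.25-fold; adjusted p = 0.00159). Averaged over all 4 probe sets of *krt4* the difference was 0.12 and the call was lost (adjusted p = 0.186). For *krt5*, another type II keratin of the early skin, the signals were 10.64, 10.64 and 10.55 in Region 1 and 10.77, 10.82 and 10.81 in Region 2, a difference of 0.19 ± 0.054 (adjusted p = 0.023). This call is lost when Region 1 control replicate 3 or Region 2 control replicate 2 or 3 is left out (highest adjusted p = 0.0838), and the second *krt5* probe set differed by 0.24 in the same direction (adjusted p = 0.00988). For the probe set used, the call is also lost when only the 6 arrays compared are fitted (limma, adjusted p = 0.0802). The type I keratin *krt17* gave 9.24, 9.29 and 9.22 against 9.57, 9.50 and 9.50, again without overlap, which is a difference of 0.27 ± 0.058 (adjusted p = 0.00571). Its second probe set went the opposite way, at -0.48 (adjusted p = 0.0101), and the mean of both turned to -0.10 (adjusted p = 0.373).

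The keratin pair of simple epithelia moved the same way. The type II keratin *krt8* was measured at 10.74, 10.74 and 10.66 in Region 1 controls and at 10.99, 11.03 and 10.96 in Region 2 controls (0.28 ± 0.058; adjusted p = 0.00509), a call that is lost with the mean of its probe sets (0.18; adjusted p = 0.0749). Its type I partner *krt18a.1* was measured at 10.72, 10.80 and 10.74, and at 11.10, 11.14 and 11.07 (0.35 ± 0.057; adjusted p = 0.00118). All 3 arrays of Region 2 lay above all 3 of Region 1 for both partners. The duplicate *krt18a.2* stayed at 2.55 to 2.83 on the control arrays and did not pass the test, nor did *krt18b*, at 2.68 to 3.21.

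The numbered fish keratins split. The largest keratin difference was that of *krt93*, at 2.82, 2.84 and 2.79 in Region 1 and 4.46, 4.23 and 4.32 in Region 2 (1.52 ± 0.075; 2.87-fold; adjusted p = 1.4e-07). It was followed by *krt91*, at 5.20, 5.09 and 5.03 against 5.99, 5.84 and 5.88 (0.80 ± 0.11; adjusted p = 0.00036). The groups stand apart for these genes. A smaller difference was found for *krt99*, at 9.51, 9.47 and 9.34 against 9.61, 9.64 and 9.62 (0.18 ± 0.061; adjusted p = 0.0477), and it kept its call in only 1 of the 6 fits that leave out a control array, the one without Region 1 control replicate 1 (highest adjusted p = 0.165).

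The 3 keratins that were lower in Region 2 were *krt15*, *krt94* and *krt97*. *krt94* gave 6.37, 6.26 and 6.14 in Region 1 controls and 5.84, 5.73 and 5.53 in Region 2 controls (-0.56 ± 0.093; adjusted p = 0.00128). *krt97* gave 8.59, 8.83 and 8.77, and 8.27, 8.44 and 8.09 (-0.46 ± 0.094; adjusted p = 0.0043). *krt15*, which in mammals marks basal keratinocytes, was dim throughout, at 3.41, 3.31 and 3.46 against 2.64, 2.95 and 2.76 (-0.61 ± 0.092; adjusted p = 0.000675). For each of them every Region 1 array exceeded every Region 2 array. The remaining 10 keratins, among them *krt92* at 8.81 to 9.13 on the control arrays, did not pass the test.

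**Figure D1:**
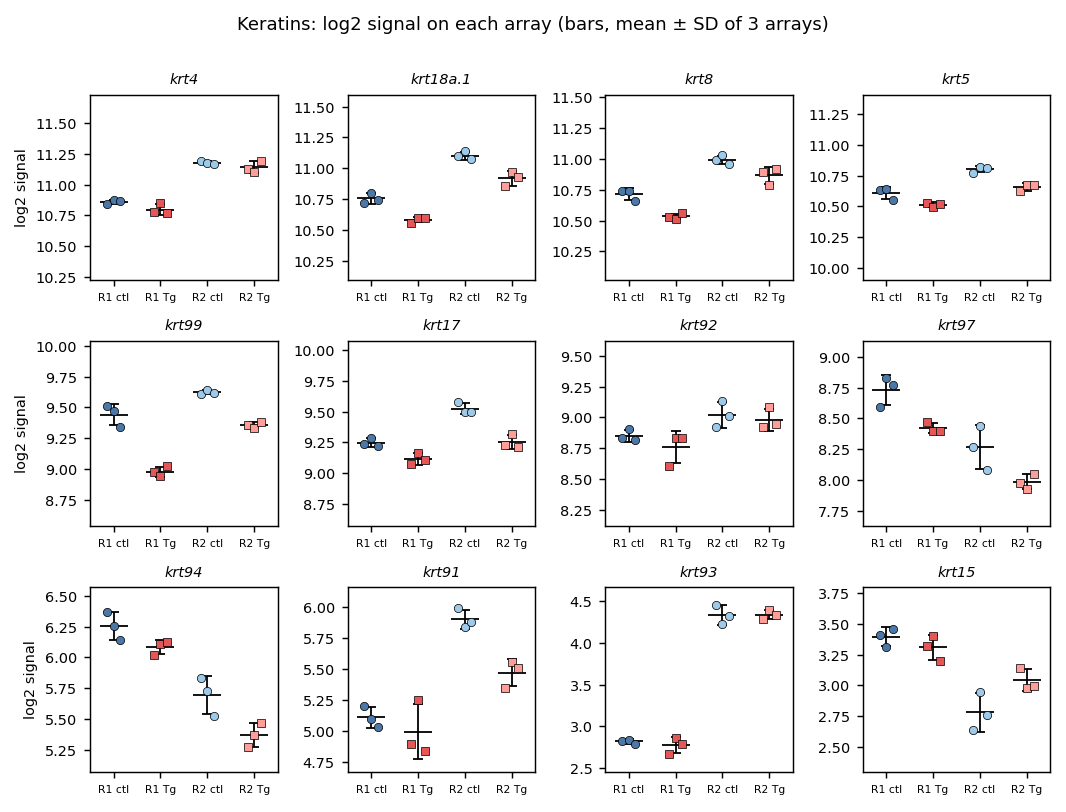
Log2 signal (vertical axes, each with its own range) of the 10 keratins with a mean above 5 and of *krt93* and *krt15* on each of the 12 arrays. R1 and R2 are Region 1 and Region 2, ctl is control, Tg is transgenic, points are arrays and bars give the mean and SD of 3 arrays. *krt4* gives 10.84 to 10.87 in Region 1 controls and 11.17 to 11.19 in Region 2 controls, whereas *krt94* falls from 6.14 to 6.37 to 5.53 to 5.84.

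Several of these calls belong to genes that lie close together, and neighbours did not always differ in the same direction. Runs were read from the order of protein-coding genes in the GRCz12tu assembly, and a few other genes may lie between the members of a run. *krt5*, *krt8*, *krt18a.1* and *krt18a.2* form such a run, and 3 of the 4 were higher in Region 2. A run of 5 keratins, *krt93*, *krt94*, *krt98*, *krt15* and *krt99*, held 2 that were higher (*krt93* and *krt99*) and 2 that were lower (*krt94* and *krt15*). The run of *krt1-19d*, *krt1-19e*, *krt92*, *krt17* and *krt91* held 2 that were higher. The probe set that lists both *krt91* and *krt17* was 0.37 higher in Region 2, so closely related neighbours may share signal.

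The skin claudins were divided between the regions. *cldne*, which is known from the enveloping layer, gave 8.23, 8.26 and 8.14 in Region 1 controls and 8.54, 8.60 and 8.59 in Region 2 controls (0.37 ± 0.061; 1.29-fold; adjusted p = 0.00127). Its neighbour *cldnf* gave 7.01, 7.15 and 7.06, and 7.43, 7.51 and 7.41 (0.38 ± 0.069; adjusted p = 0.00245). *cldnb*, a claudin of skin and of the lateral line primordium, gave 8.48, 8.40 and 8.39, and 8.62, 8.67 and 8.69 (0.23 ± 0.055; adjusted p = 0.0101), but its dim second probe set differed by -0.28 (adjusted p = 0.0224) and the mean of both turned to -0.021 (adjusted p = 0.83). In the probe sets used, the arrays of the regions do not overlap for any of these genes.

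*cldna* went the other way. It gave 8.39, 8.39 and 8.41 in Region 1 controls and 7.61, 7.48 and 7.36 in Region 2 controls (-0.91 ± 0.076; 1.88-fold; adjusted p = 9.3e-06). In the gene order, *cldnj*, *cldne*, *cldnf* and *cldna* form a run of 4 in the same sense, which holds 2 claudins that were higher in Region 2 and 2 that were lower. *cldnj*, needed for the ear and its otoliths in zebrafish, gave 3.56, 3.52 and 3.39 against 3.00, 3.05 and 3.18 (-0.41 ± 0.080; adjusted p = 0.00316). *cldn1*, which in mammals seals the epidermis, was also lower in Region 2, at 4.81, 4.89 and 4.83 against 4.44, 4.17 and 4.50 (-0.47 ± 0.092; adjusted p = 0.00338). The epithelial claudin *cldn7b* gave 9.30 to 9.31 in Region 1 controls and 9.22 to 9.25 in Region 2 controls, a difference of -0.07 that did not pass the test (95% interval -0.20 to 0.060; adjusted p = 0.407). Of the 8 claudins listed for skin and surface layer, 3 were higher and 2 lower, where 11.7% of the named genes were higher and 26.0% lower.

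The claudins of other epithelia were mostly dim. The claudin with the largest difference was *cldn2*, which in mammals forms a cation pore in leaky epithelia such as the kidney tubule. It gave 4.85, 4.84 and 4.93 in Region 1 controls and 3.63, 3.76 and 3.84 in Region 2 controls (-1.13 ± 0.12; 2.19-fold; adjusted p = 4.8e-05), and its second probe set gave -1.31. In the opposite direction, *cldng* gave 3.41, 3.21 and 3.02 against 4.56, 4.15 and 4.20 (1.09 ± 0.17; adjusted p = 0.00072), and *cldn34a* gave 3.03, 2.94 and 2.93 against 3.77, 4.41 and 3.94 (1.07 ± 0.15; adjusted p = 0.000461). None of these genes overlaps between the regions. *cldn15a*, whose mammalian counterpart forms a pore in the gut, gave 3.76, 4.11 and 4.24 against 4.59, 4.83 and 4.55 (0.62 ± 0.19; adjusted p = 0.0299), a call that is lost without replicate 1 or 2 of either region (highest adjusted p = 0.104). The dim claudins *cldnd* and *cldnd1a* were lower in Region 2, with differences of -0.74 ± 0.073 and -0.62 ± 0.093. The other called claudins were *cldn8.2*, which was 0.21 higher, and *cldn33b*, *cldn10a*, *cldn15lb* and *cldn12*, at -0.45, -0.38, -0.35 and -0.19. Of these *cldn12*, a claudin that lacks the usual anchor to the junction scaffold in mammals, has a clear signal, at 7.97, 8.06 and 8.09 in Region 1 controls and 7.86, 7.84 and 7.84 in Region 2 controls (adjusted p = 0.0307). It too kept its call only without Region 1 control replicate 1 (highest adjusted p = 0.102). The remaining 28 claudins did not pass the test, *cldn11b* among them at 8.21 to 8.30 on the control arrays.

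*cldn5a*, a barrier claudin of the early neural tube, gave 6.86, 6.89 and 6.98 in Region 1 controls and 6.30, 6.31 and 6.19 in Region 2 controls (-0.64 ± 0.079; adjusted p = 0.000173). The neural genes moved with it. Of 11 neural tube and neural plate genes 9 were lower and 1 higher in Region 2, where 26.0% of the named genes were lower and 11.7% higher. Averaged over the 11, the Region 1 control arrays gave 6.76 to 6.77 and the Region 2 control arrays 5.57 to 5.58. None of the 11 lay at or below a mean of 3.5. The part of neural tissue in the *cldn5a* difference was not tested. Its duplicate *cldn5b* lay between 1.75 and 2.17 on all control arrays, and *cldn11a* between 2.24 and 2.57, and neither passed the test. Of the 11 claudins listed for the nervous system, vessels and lumens 3 were lower and none higher, beside the same 26.0% and 11.7% of the named genes. Of these 11 claudins 8 lay at or below a mean of 3.5, among them *cldnj* and *cldn15lb*, which were called lower.

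**Figure D2:**
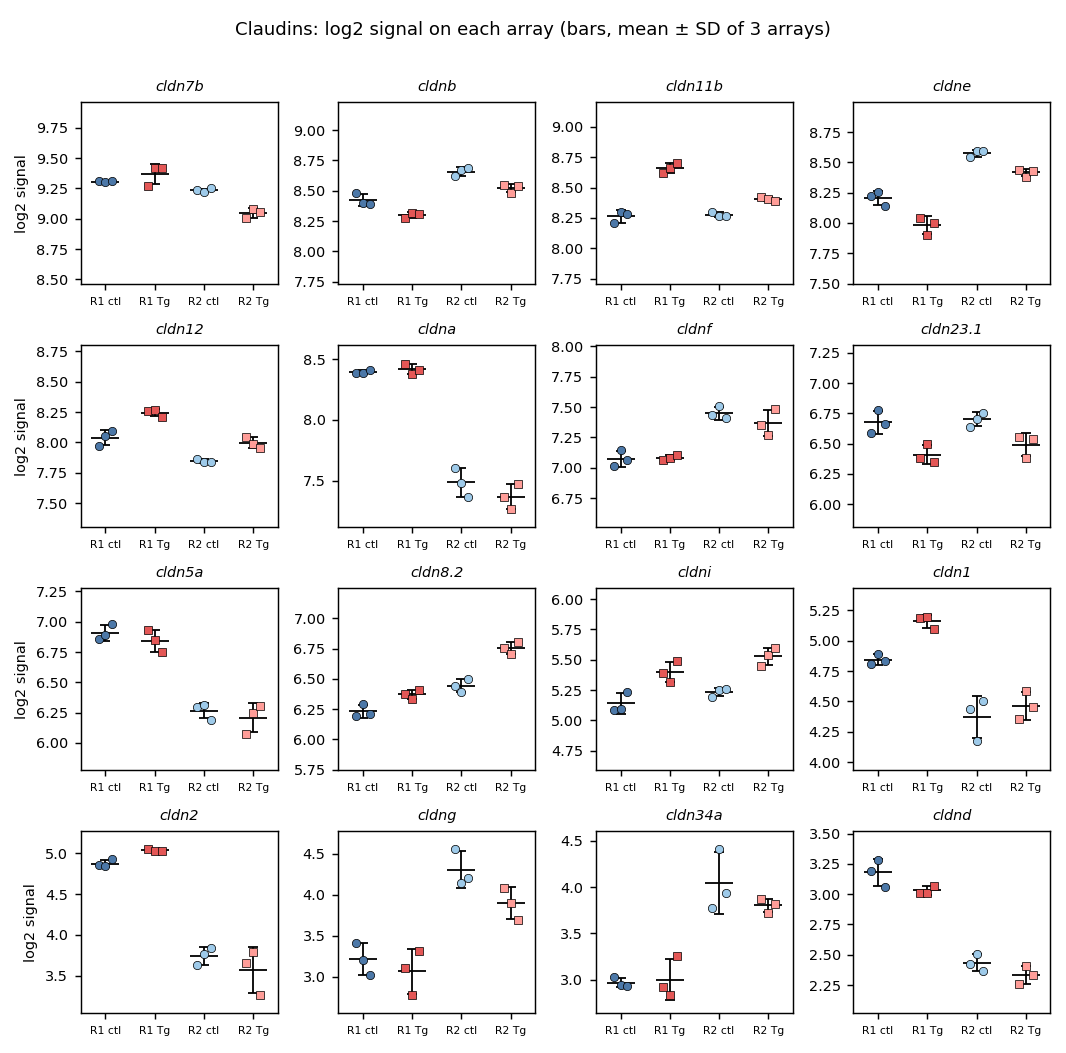
Log2 signal (vertical axes, each with its own range) of the 11 claudins with a mean above 5 and of 5 dimmer ones on each of the 12 arrays. Labels and bars are as in the plot of the keratins. *cldna* falls from 8.39 to 8.41 in Region 1 controls to 7.36 to 7.61 in Region 2 controls, and *cldne* rises from 8.14 to 8.26 to 8.54 to 8.60.

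The counts of higher and lower claudins depend on how the regions are scaled to each other. The array medians were 3.47 to 3.49 in Region 1 but 3.29 to 3.32 in Region 2, and centring each array on its median moves the median difference of all probe sets from -0.06 to 0.12. With this centring 13 claudins were higher and 7 lower (65.0% higher in place of 38.9%). Of the called named genes 68.1% were higher with it, in place of 31.0%. Quantile normalization gave 10 and 8 (55.6% higher), and centring on the probe sets with a mean above 5 gave 7 and 9 (43.8%). Under these settings 51.7% and 44.3% of the called named genes were higher. Under the 3 settings in this order keratins were 9 and 3, 8 and 3, and 8 and 3 (75.0%, 72.7% and 72.7% higher). The 21 members that passed the test in the same direction under all 4 scalings in control and in transgenic pieces were 6 keratins higher in Region 2 (*krt4*, *krt8*, *krt18a.1*, *krt91*, *krt93*, *krt99*), 1 keratin lower (*krt94*), 7 claudins higher (*cldnb*, *cldne*, *cldnf*, *cldn8.2*, *cldn15a*, *cldng*, *cldn34a*) and 7 claudins lower (*cldna*, *cldn1*, *cldn2*, *cldn5a*, *cldnd*, *cldnd1a*, *cldnj*). Named genes that pass the same rule were not counted, so this stability is not shown to be particular to the members. Choices other than scaling lost some of these calls. The mean of a gene's probe sets did so for *krt4*, *krt8*, *krt91*, *cldnb* and *cldng*, and leaving out 1 array for *krt99* and *cldn15a*.

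The transgenic pieces give the regional comparison a second time, with means from other arrays than the control comparison but with the same estimate of the spread, which was made over all 12 arrays, so these calls are not independent. Here 6 keratins were higher and 2 lower in Region 2, and 7 claudins were higher and 15 lower, where 7.77% of all probe sets were higher and 18.8% lower and 37.8% of the named genes passed in either direction. Of the 29 members called in control pieces, 25 (86.2%) were called in transgenic pieces in the same direction, which is 83.3% of the 30 called there. The same agreement over all named genes was not counted, so it is not shown to be particular to the members. The keratins called in control pieces only were *krt5*, *krt15* and *krt17*, and *cldn10a* was the only such claudin. *krt17* gave 9.07, 9.17 and 9.10 in Region 1 and 9.23, 9.32 and 9.22 in Region 2 (0.14; adjusted p = 0.11). *cldn3d*, *cldn7a*, *cldn7b*, *cldn11b* and *cldnk* were called in transgenic pieces only, all of them lower in Region 2. For *cldn7b* the arrays gave 9.27, 9.42 and 9.42 in Region 1 and 9.08 at most in Region 2 (-0.32 ± 0.059; adjusted p = 0.00241), so they do not overlap, but with arrays centred on their medians it was -0.15 and the call was lost (adjusted p = 0.072). With arrays centred on their medians, 11 keratins were higher and 1 lower and 13 claudins higher and 9 lower in transgenic pieces (91.7% and 59.1% higher in place of 75.0% and 31.8%). Of the called named genes 61.8% were higher with this centring, in place of 26.5%. Centring on the brighter probe sets gave 10 and 2 keratins and 10 and 10 claudins (50.0% higher), and quantile normalization 7 and 2 keratins and 13 and 12 claudins (52.0%). Under these settings 44.7% and 47.7% of the called named genes were higher.

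Members with large differences kept their direction, with sizes that varied. *krt93* differed by 1.52 in control pieces and by 1.57 ± 0.075 in transgenic pieces (4.29, 4.40 and 4.34 in Region 2 against 2.66, 2.85 and 2.79 in Region 1). *cldna* differed by -0.91 and -1.05 ± 0.076, and *cldn2* by -1.13 and -1.47 ± 0.12. The differences of *cldng* (1.09 and 0.83), *cldn34a* (1.07 and 0.80) and *krt91* (0.80 and 0.48) were smaller in transgenic pieces. No member passed the test of whether its regional difference depended on the genotype, which is the same test as that of a transgenic effect that depends on the region.

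**Figure D3:**
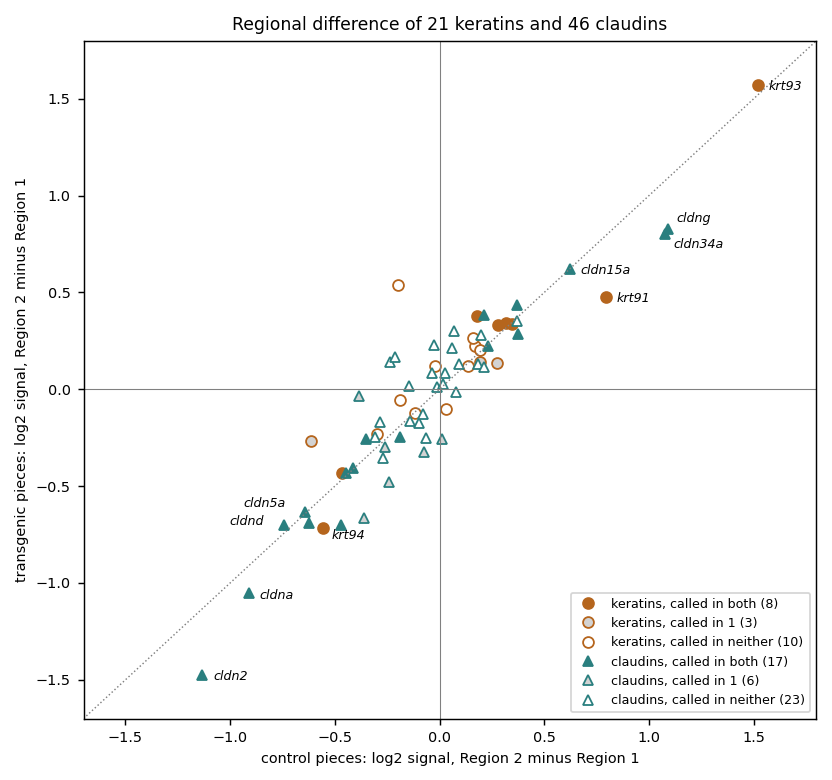
Regional difference (log2 signal, Region 2 minus Region 1) of the 21 keratins (circles) and 46 claudins (triangles) in control pieces (horizontal) and transgenic pieces (vertical). Filled symbols passed an adjusted p of 0.05 in both genotypes (8 keratins and 17 claudins), grey ones in 1 and open ones in neither, and the dotted line marks equal values. All 25 genes called in both have the same sign on both axes.

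Raised *dmrt2a* was the experimental variable, so each gene was then compared between transgenic and control pieces of the same region. None of the 67 members passed an adjusted p of 0.05 with limma in Region 1 or in Region 2, where 0.507% and 0.468% of all probe sets did (0.953% and 1.01% of the named genes). At an unadjusted p under 0.05, 5 keratins and 9 claudins differed in Region 1 and 8 keratins and 10 claudins in Region 2, where the named genes gave 16.1% and 13.3%. The test named in the methods, run on the same values, also called none in these 2 comparisons. With limma on all 12 arrays in 1 fit, as used between the regions, a few members passed. They were *krt99* and *cldn11b* in Region 1 (adjusted p = 0.00383 and 0.00497), and *krt17* (adjusted p = 0.0476) and *cldn8.2* in Region 2. The share of named genes that pass in that fit was not counted. For the difference of the effect between regions no member passed (0.191% of all probe sets and 0.387% of the named genes did), and 3 keratins and 4 claudins had an unadjusted p under 0.05, where the named genes gave 11.7%.

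In genes with a clear signal the intervals bound how large such effects can be for the probe set used, not for the gene as a whole. For *krt4* the difference was -0.06 in Region 1 (95% interval -0.21 to 0.088) and -0.04 in Region 2 (-0.19 to 0.12). Its further probe sets differed by -0.23, -0.25 and -0.38 in Region 1, all below that interval (limma, adjusted p = 0.246, 0.231 and 0.155). In Region 2 they differed by 0.01, -0.04 and 0.17. For *krt5* it was -0.09 (-0.25 to 0.057) and -0.15 (-0.30 to 0.0079). Both intervals of either gene include 0. *cldna* differed by 0.03 (-0.12 to 0.17) and -0.12 (-0.34 to 0.11), and *cldnb* by -0.13 (-0.28 to 0.026) and -0.14 (-0.29 to 0.022). For the claudin of the neural tube, *cldn5a*, the values were -0.07 (-0.25 to 0.12) and -0.06 (-0.27 to 0.15).

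The keratin nearest to the threshold was *krt99*. It gave 9.51, 9.47 and 9.34 on the Region 1 control arrays and 8.98, 8.94 and 9.02 on the transgenic ones, so the groups do not overlap, and it was -0.46 ± 0.073 in Region 1 (adjusted p = 0.0703). In Region 2 it gave 9.61, 9.64 and 9.62 against 9.36, 9.33 and 9.38 (-0.26 ± 0.063; adjusted p = 0.193). The *krt17* arrays do not overlap either. Its difference was -0.13 in Region 1 (adjusted p = 0.46), while Region 2 gave -0.27 ± 0.069 (adjusted p = 0.221). The second *krt17* probe set differed by -0.47 in Region 1 but by 0.12 in Region 2 (limma, adjusted p = 0.143 and 0.794). *krt91* in Region 2, at 5.99, 5.84 and 5.88 against 5.35, 5.56 and 5.51, differed by -0.43 ± 0.086 (adjusted p = 0.132).

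The claudin nearest to the threshold was *cldn11b*, whose mammalian counterpart is a claudin of myelin. It gave 8.21, 8.30 and 8.28 on the Region 1 control arrays and 8.62, 8.66 and 8.70 on the transgenic ones (0.40 ± 0.065; 1.32-fold; adjusted p = 0.0763). In Region 2 it gave 8.30, 8.27 and 8.26 against 8.42, 8.41 and 8.39, a difference of 0.13 ± 0.062 (adjusted p = 0.531). No array of one genotype reached the range of the other in either region, and the difference between the regions had an adjusted p of 0.277. *cldne* was -0.23 ± 0.072 in Region 1 (adjusted p = 0.283), and Region 2 gave -0.16 ± 0.064 (adjusted p = 0.444). Chosen after their values were seen, *cldn8.2* and *cldni* were 0.31 ± 0.070 and 0.30 ± 0.071 in Region 2, with adjusted p of 0.175 and 0.198.

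The signs of the member keratins with a clear signal ran one way. All 10 keratins with a mean above 5 had a transgenic mean below the control mean in both regions, with medians of -0.15 in Region 1 and -0.22 in Region 2, and this held for all 10 under each of the 3 other scalings. The medians of all 9569 named genes above 5 were 0.03 and -0.0005. The transgenic arrays were all under the control arrays for 7 of the 10 keratins in Region 1 and for 8 in Region 2, a pattern shown by 14.7% and 18.2% of the named genes above 5. Of the 11 claudins above 5, 7 lay above the controls in Region 1 and 4 in Region 2. The cytokeratin genes *cyt1* and *cyt1l*, which the symbol rule leaves out, did not share the one direction in Region 2. They differed by -0.03 and -0.02 in Region 1 and by -0.06 and 0.02 in Region 2. The choice of probe set matters for Region 2: 6 further probe sets of *krt4*, *krt5*, *krt8* and *krt17* with a mean above 5 were all below the controls in Region 1 (median -0.31), but only 2 of the 6 in Region 2 (median 0.04). These counts were made after the values were seen, the keratins share the cells they come from, and none of the single genes passed the test on the 6 arrays of a region.

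**Figure D4:**
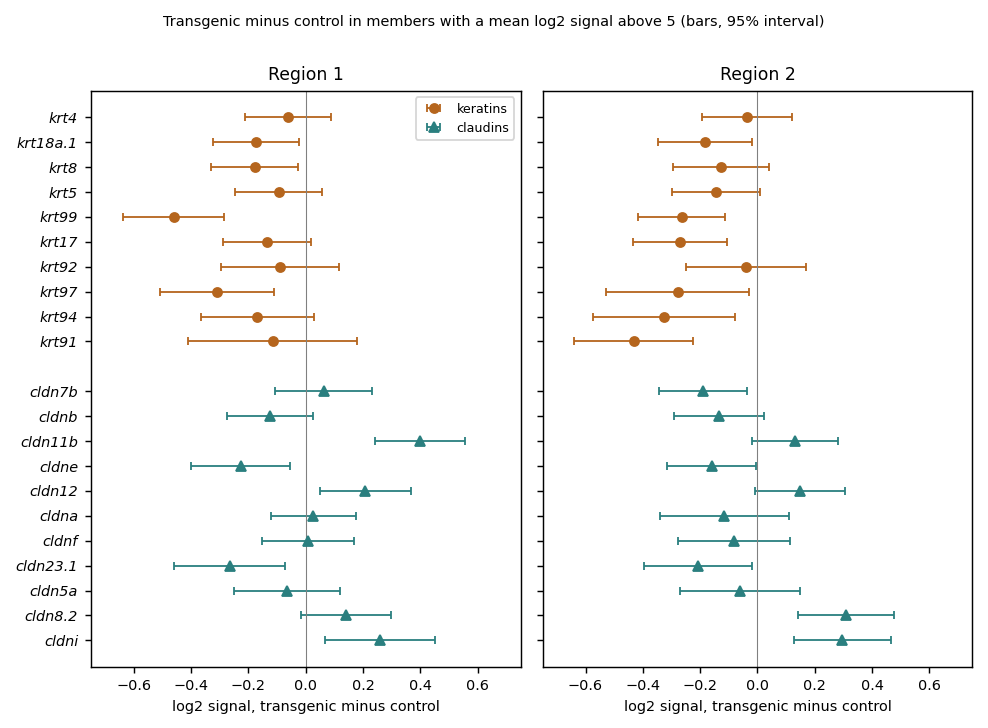
Difference of the log2 signal between transgenic and control pieces (horizontal axes) in Region 1 (left) and Region 2 (right) for the 10 keratins (circles) and 11 claudins (triangles) with a mean log2 signal above 5. Points are differences of means of 3 arrays and bars are 95% intervals from limma. All 10 keratins lie below 0 in both regions, from -0.46 to -0.06 in Region 1 and from -0.43 to -0.04 in Region 2, whereas claudins lie on either side.

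Other genes of the same epithelia were read beside the members. Of 14 surface layer and periderm genes that are not members, 10 were higher and 1 lower in Region 2 control pieces. Of the named genes 11.7% were higher and 26.0% lower, the shares to set beside this and the following lists. Averaged over the 14, the Region 1 control arrays gave 7.68 to 7.73 and the Region 2 control arrays 7.89 to 7.94. Among them *agr1* was 0.50 higher (adjusted p = 8.4e-05) and *anxa1c*, an annexin of the surface layer, 0.50 higher (adjusted p = 0.000265), and *icn*, which encodes ictacalcin, was lower, at -0.63 (adjusted p = 0.000558). The other scalings gave 11 to 13 higher and 1 lower. With arrays centred on their medians 5812 of the 20667 named genes were higher and 2721 lower. Centring on the brighter probe sets gave 3244 and 4079 named genes, and quantile normalization 3637 and 3395. The counts in transgenic pieces were 7 higher and 1 lower, where 2073 of the named genes were higher and 5735 lower.

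Of 41 genes of epithelial junctions and epithelial regulation 16 were higher and 6 lower in Region 2 control pieces, where 11.7% of the named genes were higher and 26.0% lower. *spint1b*, a protease inhibitor of epithelia, was 0.47 higher (adjusted p = 0.000628), whereas *cgnl1* and *tjp1b*, which lie under the tight junction membrane, were lower, at -1.55 and -0.55 (adjusted p = 7.9e-08 and 8.2e-05) and the epithelial regulator *grhl2b* likewise, at -1.08 (adjusted p = 2.9e-07). Centring arrays on their medians gave 25 higher and 4 lower, centring on the brighter probe sets 19 and 5, and quantile normalization 21 and 4. Of 17 basal epidermis genes 5 were higher and 4 lower, and the other scalings gave 8 and 2, 5 and 2, and 6 and 1 in the same order. At or below a mean of 3.5 lay 5 of the 17, where signals may be near background. Among these were *col17a1a*, *col17a1b* and *lamb4*, called higher, and *col7a1* and *frem1a*, called lower. Of the 41 junction genes 6 lay as low, and 1 of the 14 surface layer genes. The integrin pair of the hemidesmosome, *itgb4* and *itga6b*, was higher by 0.72 and 0.61 (adjusted p = 6.3e-06 and 1.9e-05), and *gata2a*, a regulator of non-neural ectoderm, was lower, at -0.37 (adjusted p = 0.00086).

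Of 12 ionocyte and mucous cell genes 5 were lower and 2 higher in Region 2, where 26.0% of the named genes were lower and 11.7% higher. The ionocyte regulators *foxi1*, *foxi3a* and *foxi3b* were lower, at -1.31, -0.84 and -0.68 (adjusted p = 6.2e-07, 5.7e-05 and 0.00011), and *dlc*, a Delta ligand that also serves the segmentation clock of the presomitic mesoderm, was 1.11 higher (adjusted p = 1.7e-07). With arrays centred on their medians the counts were 4 lower and 4 higher, where 2721 of the named genes were lower and 5812 higher. Centring on the brighter probe sets and quantile normalization each gave 4 lower and 2 higher. Of the 12 genes 3 lay at or below a mean of 3.5. The share of the members' differences that goes with the amount of skin in each pool was not tested.

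Among other tissues, 5 of 14 genes of mesenchyme and mesoderm adhesion were higher and 6 lower in Region 2, and 4 of 9 endothelial, 3 of 7 hatching gland, 3 of 9 endoderm and LRO, 2 of 9 notochord and floor plate and 1 of 7 pronephros genes were higher (0, 0, 4, 4 and 2 lower). Of the named genes 11.7% were higher and 26.0% lower.

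Single genes of these epithelial lists passed the test of the transgene, 3 in Region 1 and 2 in Region 2, where 0.953% and 1.01% of the named genes passed. Whether their share differs from that of the members or of all named genes was not tested. *tfap2c*, a transcription factor of the early epidermis, fell in the trunk pieces by 1.03 (adjusted p = 0.00359) and in the tail pieces by 0.67 (adjusted p = 0.0186). The surface layer regulator *grhl3* fell by 0.71 in Region 1 (adjusted p = 0.0346), with a difference of -0.41 in Region 2 (adjusted p = 0.0761), and the plakophilin *pkp1b* of the desmosome fell by 0.57 in Region 1 (adjusted p = 0.0295). *itgb4* fell by 0.48 in Region 2 (adjusted p = 0.0471). These were the only ones of the 14 surface layer, 17 basal epidermis, 12 ionocyte and 41 junction genes that passed the test in either region.

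**Figure D5:**
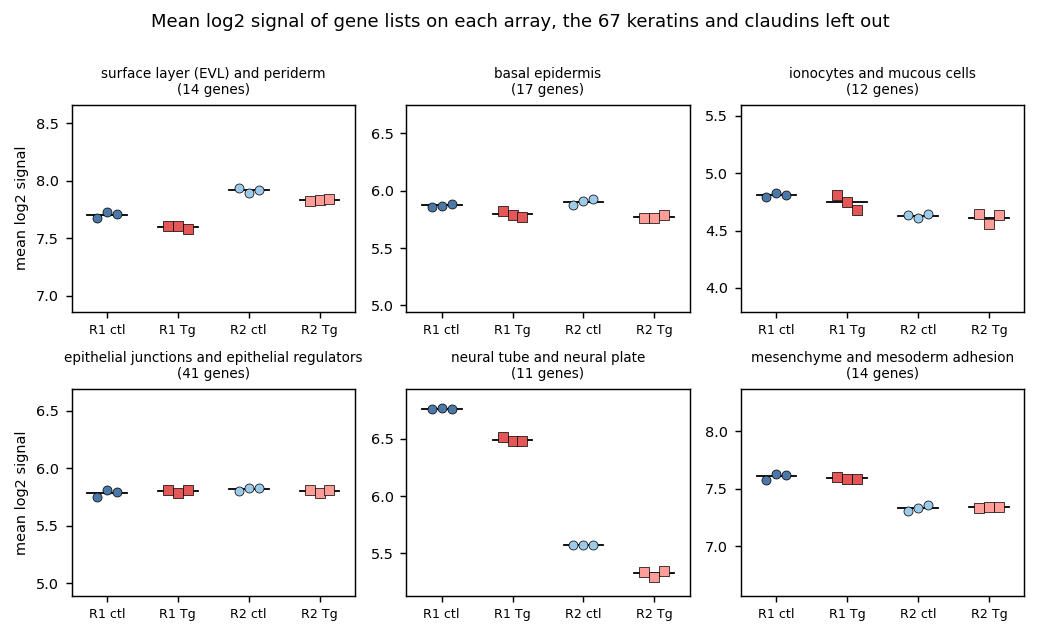
Mean log2 signal (vertical axes, each spanning the same range) over the genes of 6 lists on each array, with the 67 keratins and claudins left out. Points are arrays and lines are means of 3 arrays. The surface layer list gives 7.68 to 7.73 in Region 1 controls and 7.89 to 7.94 in Region 2 controls, while the neural list falls from 6.76 to 6.77 to 5.57 to 5.58.

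The probe sets of a gene did not always move together. Of the 12 members with several probe sets that were called between the control regions, 7 had all their probe sets on the same side of 0. Among these 7, the further probe sets of *cldnf* and *cldn8.2* hold the same values as the one used on every array. Their agreement was therefore fixed in advance. The exceptions were *krt4*, *krt17*, *cldnb*, *cldng* and *cldn33b*. The 3 further probe sets of *krt4* differed by -0.11, 0.22 and 0.04 between the control regions, where the one used differed by 0.32. The second probe set of *krt17* gave 5.87, 6.05 and 6.02 in Region 1 controls against 5.61, 5.35 and 5.55 in Region 2 controls, opposite to the one used. The second probe set of *cldnb* had a mean log2 signal of only 2.10. A probe set shared by *cldn8.2* and *cldn8.3* differed by -0.83 (adjusted p = 9.4e-05), where the one of *cldn8.2* alone was 0.21 higher (adjusted p = 0.0231), and one shared by *cldne* and *cldnf* was 0.66 higher.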

How the data were processed

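The array type was Zebrafish Gene 1.1 ST (Affymetrix), with 12 arrays in all and 3 in each group. The deposited values are log2 signals per probe set that the authors made with Affymetrix Expression Console, with settings for summarization and normalization not given in the sources used here. Medians of the arrays differ between regions, as if the regions had been normalized apart. Arrays have no read depth, and their number limits the precision.

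Gene symbols came from the platform annotation. Groups were compared with limma 3.58.1 in R 4.3.3 (lmFit and eBayes, two-sided), within each region on its 6 arrays and between regions on all 12 arrays, with Benjamini-Hochberg adjustment over all 75212 probe sets and an adjusted p of 0.05 as the threshold. An exact permutation test of 3 against 3 arrays cannot go below 0.1 and was not used. Tables and plots were made with Python 3.11.15, pandas 2.3.3 and matplotlib 3.10.9. The fit was tested on simulated data.

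Named members are those that passed the test (all where 10 or fewer passed in a comparison, otherwise the 6 largest rises and 6 largest falls of each family), the 5 keratins and 5 claudins with the highest mean signal, 12 keratins and claudins fixed by name, and up to 4 genes of each other list with the smallest adjusted p. The members, lists and tests were chosen with earlier results of these data known, and other members were named after their values were seen. Alternatives were other scalings, array subsets, leaving out each array, other probe set choices, a replicate block, limma with a trend and the methods' one-way ANOVA. Centring on the median of probe sets with a mean log2 signal above 5 was chosen after seeing the data. Scanner files were not used here, so background correction and slide were not varied, and promoter motifs were not searched.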

Additional observations from a re-analysis of the deposited data

How the results depend on the processing

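Results were recomputed with 1 choice changed at a time. Shares of called named genes are given only for the main fit and scalings, so other counts lack that comparison. With the mean of a gene's probe sets, *krt17* and *cldnb* turned to -0.10 and -0.021 between control regions (adjusted p = 0.373 and 0.83). Between transgenic regions *cldnb* turned to -0.11 (adjusted p = 0.221). The same setting lost the calls of *krt4* (0.12; adjusted p = 0.186) and *krt8* (0.18; adjusted p = 0.0749) between control regions and of *krt91* (0.20; adjusted p = 0.0963) and *cldng* (0.29; adjusted p = 0.112) between transgenic regions. Requiring a 2-fold difference, as the methods did, left 1 keratin (*krt93*) and 3 claudins (*cldn2*, *cldng*, *cldn34a*) between control regions, and 1 keratin (*krt93*) and 2 claudins (*cldna*, *cldn2*) between transgenic regions. Testing only probe sets with a mean log2 signal above 5 gave 7 claudins between control regions and 9 between transgenic regions, because fewer members were tested.

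For transgenic against control pieces, where the count was 0 for each family, a few settings gave calls, and the cause was not tested. Among these settings, the fit of all 12 arrays is the one used for the comparisons between regions. In Region 1 these were 1 keratin (*krt99*) and 1 claudin (*cldn11b*) with all 12 arrays in 1 fit or with probe sets above 5 only, 1 keratin (*krt99*) and 2 claudins (*cldn11b*, *cldn1*) with probe sets of 1 symbol only, and 3 keratins (*krt99*, *krt18a.1*, *krt8*) and 1 claudin (*cldn11b*) with a trend and robust fit. In Region 2 they were 1 keratin (*krt17*) and 1 claudin (*cldn8.2*) with all 12 arrays, 3 keratins (*krt99*, *krt17*, *krt91*) and 2 claudins (*cldn8.2*, *cldni*) with probe sets above 5 only, 1 keratin (*krt91*) with probe sets of 1 symbol only and 2 keratins (*krt99*, *krt17*) with the trend. The difference of the effect between regions gave 1 claudin (*cldn11b*) with probe sets above 5 only. Over all alternatives the adjusted p of *krt99* in Region 1 ranged from 0.00383 to 0.245, that of *cldn11b* in Region 1 from 0.00497 to 0.243 and that of *krt17* in Region 2 from 0.0339 to 0.815.

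Leaving out 1 array at a time gave 9 to 11 keratins and 14 to 16 claudins between control regions, 8 to 8 and 18 to 21 between transgenic regions, and 0 to 0 for either family in the transgene comparisons and their difference. Among the regional calls followed, *krt5*, *krt99*, *cldn12* and *cldn15a* between control regions were lost in some of these fits (highest adjusted p 0.0838, 0.165, 0.102 and 0.104). *cldn12* kept its call only without Region 1 control replicate 1. Between transgenic regions *cldn15a* was lost in some fits (highest adjusted p 0.1085). The claudin counts show that some calls not followed were lost too. The deviations of same-numbered arrays from their group means had correlations of -0.055 to 0.0787. Between the regions of the same genotype these were 0.017 to 0.0787, and for the other pairs of groups -0.055 to 0.036. Such values cannot decide whether the numbers pair the samples, because noise of the probe sets can hide a shared origin. With the replicate number as a block, 10 keratins and 17 claudins were called between control regions, 9 and 20 between transgenic regions, and 0 in the other comparisons. Among members called under the deposited scaling, other scalings lost *cldn12*, *cldn10a*, *cldn33b* and *cldn15lb* between control regions and *krt97*, *cldn7b*, *cldn11b*, *cldn12*, *cldn15lb*, *cldn33b* and *cldnk* between transgenic regions, each of them with arrays centred on their medians and some with other scalings too. For *cldn11b* the adjusted p was 0.055 and 0.256 under the 2 centrings. Among the calls followed, one-way ANOVA lost *krt99*, *krt97*, *cldn1* and *cldn15a* between control regions (adjusted p = 0.0946, 0.0838, 0.0556 and 0.0863). Between transgenic regions, of the calls followed, it lost *krt91*, *cldnf*, *cldn15a*, *cldng* and *cldn3d* (adjusted p = 0.107, 0.0588, 0.167, 0.0658 and 0.0812).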
